A study of Mus musculus with 15 samples.

Results

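*Pax8*, *Pax2*, *Hnf4a*, *Cdh6*, *Cdh16*, *Lrp2*, *Aqp1* and *Ggt1* are 8 genes by which renal tubule cells are commonly recognized. They were chosen by symbol, and 6 of the 8 had a row among the 18279 genes of the table. The RNA of *Hnf4a* and *Cdh6* was not analysed here. The RNA of the 6 was compared between subcutaneous tumors of Renca, a mouse renal cell carcinoma line of BALB/c origin, that were grown in female Balb/c mice bought at 4 to 6 weeks of age. The 15 tumors came from 3 kinds of cells, with 5 tumors in each group. Tumors 1 to 5 were controls, which the sample labels call parental Renca cells and the study calls control knockout cells. Tumors 6 to 10 came from *Pbrm1* knockout clone 4 and tumors 11 to 15 from *Pbrm1* knockout clone 18. *Pbrm1* encodes a subunit of the PBAF chromatin remodeling complex. The knockout lines were made by transient plasmid CRISPR/Cas9 and grown from single cells, so each knockout group is 1 clone and its 5 tumors are replicate tumors of that clone. The effect of the genotype and a difference between cell lines cannot be told apart. Mice of the series were either untreated or given a PD-1 antibody, and the labels do not say which of them gave these tumors. Tumors were taken when they reached 1000 mm3, ulcerated or caused distress.

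The nephron is built by a sequence of transcription factors, among which the paired-box factors PAX2 and PAX8 act from the earliest renal precursors onward and HNF4A drives maturation of the proximal tubule. The mature proximal tubule carries a brush border that reabsorbs most of the filtered water, solute and protein. Megalin, the product of *Lrp2*, takes up filtered protein there. Aquaporin-1 lets water through, and gamma-glutamyltransferase 1 starts the breakdown of glutathione outside the cell. Clear cell and papillary renal carcinomas are thought to arise from this segment, and PAX8 is widely stained to show the renal origin of a tumor.

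The unit used throughout is the normalized count, which is the number of reads on a gene divided by a size factor of the tumor. Reads on genes numbered between 32924414 and 49099168 in the 15 libraries (median 40860659). These are counts of reads, not of molecules. *Pbrm1* was at 7451.5 to 9870.6 in control tumors and at 2483.8 to 3137.5 in knockout tumors, so the log2 difference was -1.69 (limma, adjusted p = 2.94e-11). Summed levels of the 7 epithelial markers with a row were 80340 to 101400 in control tumors and 66170 to 95540 in knockout tumors. Skeletal muscle markers were uneven, with sums of 1005.8 to 2278.7 in tumors 9, 10, 11, 14 and 15 and of 89.8 to 461.6 in the other tumors. Over all 18250 genes tested, 22.1% had an adjusted p under 0.05 between the 10 knockout and the 5 control tumors, 16.8% between clone 4 and the control, 24.7% between clone 18 and the control and 4.62% between the clones. Clone 4 and clone 18 were compared with the same 5 control tumors.

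All 6 genes were transcribed in each of the 15 tumors, at very different levels. Compared per kilobase of exon, *Cdh16* was the highest, with a median of 6192 normalized counts per kilobase and a range from 5076 to 7087. *Aqp1* came next with a median of 953.7 and *Pax8* followed with 550.3. *Cdh16* lay above *Aqp1* in 15 of 15 tumors, whereas *Aqp1* lay above *Pax8* in 13 of 15. The other genes were far lower. The median per kilobase was 35.3 for *Ggt1*, 26.5 for *Pax2* and 21.8 for *Lrp2*. *Pax8* was above *Ggt1* in 15 of 15 tumors, but *Ggt1* was above *Pax2* in only 8 of 15 and *Pax2* above *Lrp2* in 8 of 15, so the order of the last 3 genes was not the same from tumor to tumor. In control tumors *Ggt1* had 51.0 ± 5.89 normalized counts per kilobase (SD, n = 5) beside 23.9 ± 5.01 for *Pax2* (SD, n = 5). In knockout tumors the same genes had 27.5 ± 8.88 and 29.6 ± 6.94 (SD, n = 10). By mean normalized count, not scaled by length, *Cdh16* exceeded 99.1% of the 18250 genes tested, *Pax8* 82.9%, *Aqp1* 76.1%, *Lrp2* 45.5%, *Pax2* 36.8% and *Ggt1* 34.9%.

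**Figure D1:**
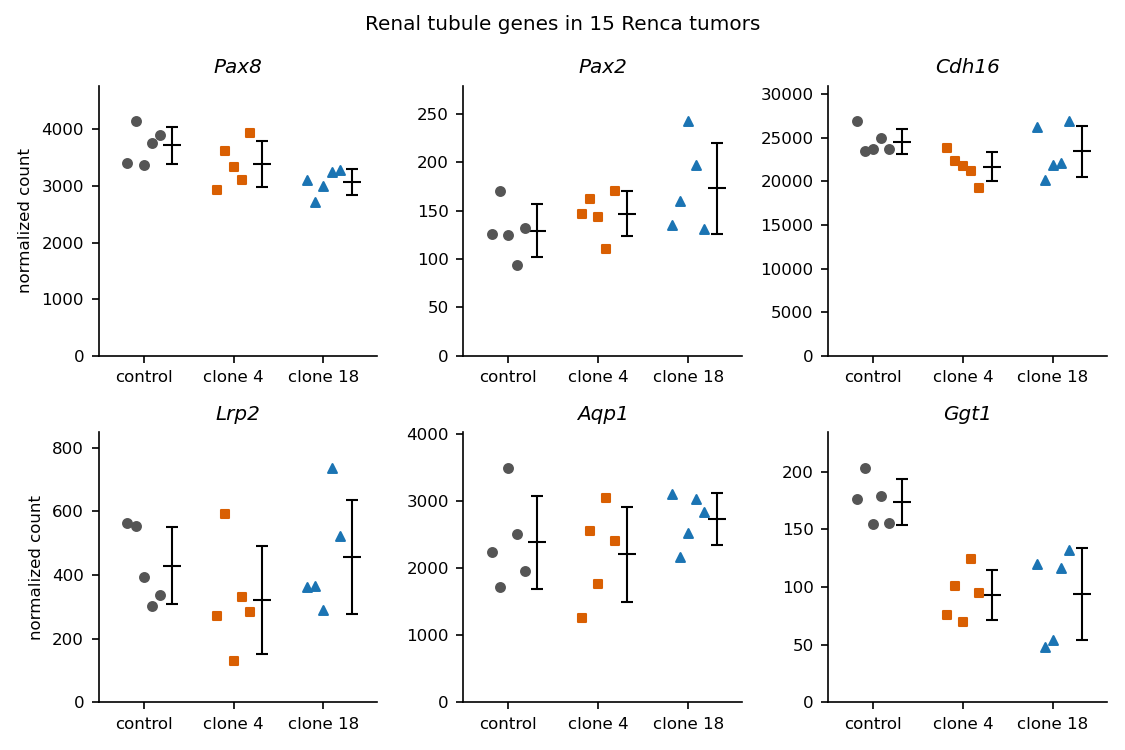
Normalized count of each gene (vertical axes, starting at 0) in control, clone 4 and clone 18 tumors. Each point is 1 tumor and the bar beside each group is the mean with its SD (n = 5). For Ggt1 the 10 knockout tumors lie between 48.0 and 132.1, below the lowest control tumor at 154.9, and for the other 5 genes the groups overlap.

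Of the 6 genes, *Ggt1* fell in the knockout tumors and the other 5 did not pass the test. This is 1 of 6 beside 22.1% of all genes tested, so the share is near the background. In each case the question was whether knockout and control tumors differ by more than tumors of 1 group differ among themselves. The median log2 difference was -0.167 over the 6 genes and -0.019 over all genes tested. edgeR and DESeq2, run on whole reads recovered from the normalized counts, also called *Ggt1* alone. All values in this comparison come from whole tumors, in which fewer cells of a type and less RNA per cell cannot be told apart.

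*Pax8* (ENSMUSG00000026976, chr2:24420560-24475599 of GRCm38, minus strand) encodes the paired-box factor that is retained in adult tubule and in renal carcinoma. Its normalized counts were 3410.8, 4143.0, 3363.4, 3763.8 and 3895.2 in control tumors 1 to 5. They were 2927.7, 3610.2, 3335.2, 3105.0 and 3942.3 in clone 4 and 3105.4, 2719.2, 2994.9, 3246.6 and 3281.3 in clone 18. The 5 clone 18 tumors all lay below the lowest control tumor, while tumors 7 and 10 of clone 4 lay among the controls. Clone 18 averaged 82.6% of the control level. The log2 difference was -0.27 ± 0.08 (standard error; adjusted p = 0.0238 from limma), so *Pax8* passed the test there. For clone 4 the log2 difference was -0.14 (adjusted p = 0.300 from limma), and for both clones together -0.21 (standard error 0.08, adjusted p = 0.063 from limma). The difference between the clones was itself -0.14 with a 95% interval from -0.31 to 0.04 (adjusted p = 0.417 from limma), so clone 18 was not shown to differ from clone 4. Of the 6 members 0 passed the test between the clones by limma, edgeR or DESeq2, and 0 had an unadjusted p under 0.05. The clone 18 call was lost without tumor 2, 5 or 12 (adjusted p from 0.0547 to 0.0639 from limma) and with quantile or upper-quartile scaling (0.0505 and 0.0549). It was also lost without control tumors 2 and 4 together (0.139). The pooled difference passed without tumor 7 (0.0441) or tumor 10 (0.0177). *Gm13415* overlaps *Pax8* on the other strand, and whether reads were counted by strand is not given in the sources used here.

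*Pax2* (ENSMUSG00000004231, chr19:44756045-44837871, plus strand), the paired-box factor needed for the ureteric bud and early nephron, had a level per kilobase far below that of *Pax8* and only 84 to 197 reads per tumor. It had normalized counts of 125.3, 170.0, 125.2, 94.1 and 132.2 in control tumors. Clone 4 tumors were at 146.6, 162.4, 143.2, 110.4 and 170.4, and clone 18 tumors at 134.7, 160.0, 242.2, 197.5 and 131.0. The groups overlapped, and 3 knockout tumors, of which tumors 13 and 14 were the highest, lay above every control tumor. The log2 difference was 0.30 with a 95% interval from -0.07 to 0.66 (adjusted p = 0.245 from limma). *Mir6405* overlaps it on its own strand, and *Gm20395* and *1700039E22Rik* on the other.

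*Cdh16* (ENSMUSG00000031881, chr8:104601911-104624396, minus strand) encodes Ksp-cadherin, a kidney-specific cell adhesion protein of the basolateral tubule membrane. Control tumors had normalized counts of 26842.7, 23481.7, 23650.2, 25006.8 and 23703.0. Clone 4 tumors had 23780.2, 22309.9, 21781.6, 21168.6 and 19248.1, and clone 18 tumors 26175.8, 20158.8, 21844.0, 22141.1 and 26872.9. Of the 10 knockout tumors 7 were below the lowest control, but tumor 15 was the highest of all 15. *Cdh16* varied the least of the 6 genes, by 1.396 times from the lowest to the highest tumor. The log2 difference was -0.13 with a 95% interval from -0.29 to 0.03 (adjusted p = 0.252 from limma). In clone 4 it was -0.18 (standard error 0.08, unadjusted p = 0.0444, adjusted p = 0.156 from limma) and in clone 18 -0.07 (adjusted p = 0.576).

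*Lrp2* (ENSMUSG00000027070, chr2:69424340-69586065, minus strand) encodes the endocytic receptor megalin. Control tumors had normalized counts of 561.7, 552.2, 394.1, 301.4 and 336.2, clone 4 tumors 271.0, 592.5, 129.3, 332.2 and 285.2, and clone 18 tumors 363.3, 364.2, 290.6, 736.7 and 523.9. The tumors of each group were widely spread, and those of clone 4 the most. The coefficient of variation was 28.3% for control tumors, 52.5% for clone 4 and 39.2% for clone 18, and the lowest tumor (tumor 8) and the highest (tumor 14) differed 5.70 times. The log2 difference between knockout and control was -0.24 with a 95% interval from -0.87 to 0.39 (adjusted p = 0.629 from limma). The clones lay on opposite sides of the control, at -0.53 for clone 4 (adjusted p = 0.305) and 0.05 for clone 18 (adjusted p = 0.931). Their difference was 0.58, with a 95% interval from -0.10 to 1.26 (adjusted p = 0.360 from limma), and *Lrp2* in clone 18 changed side without tumor 4, 5, 14 or 15 and without the 5 tumors rich in muscle markers.

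*Aqp1* (ENSMUSG00000004655, chr6:55336432-55348555, plus strand) encodes the water channel of the proximal tubule and thin descending limb, which endothelium and red cells also use. Control tumors had normalized counts of 2239.8, 1713.9, 3493.2, 2505.5 and 1962.4, clone 4 tumors 1250.7, 2553.3, 1759.6, 3039.0 and 2408.4, and clone 18 tumors 3097.2, 2166.7, 2514.5, 3023.1 and 2835.7. The highest of all was control tumor 3 and the lowest clone 4 tumor 6, so the 3 groups overlapped over most of their range. The log2 difference was 0.05 with a 95% interval from -0.36 to 0.45 (adjusted p = 0.904 from limma). It was -0.14 in clone 4 and 0.23 in clone 18 (adjusted p = 0.729 and 0.479), and 0.36 between the clones (adjusted p = 0.384).

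**Figure D2:**
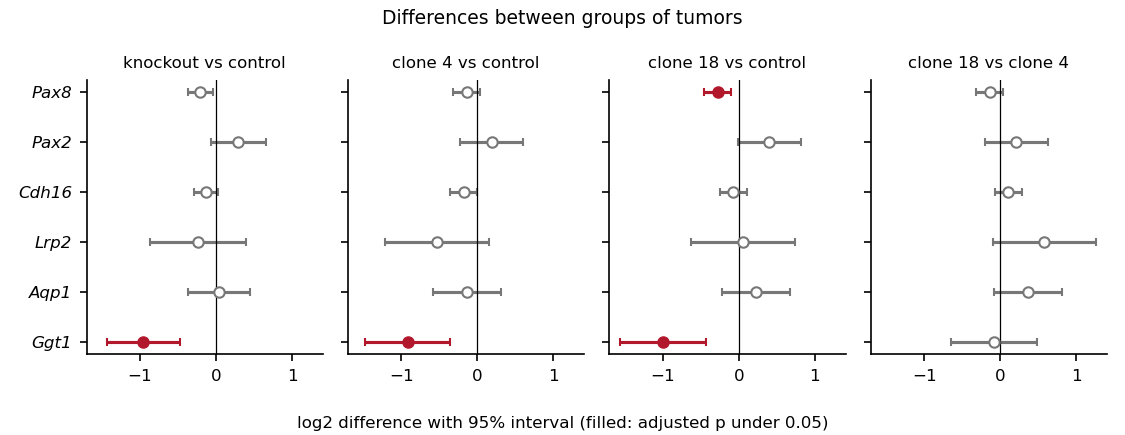
Log2 difference (horizontal axes) of each gene with its 95% interval from limma in 4 comparisons. Filled points had an adjusted p under 0.05 over all genes tested. Ggt1 lies near -1 against the control in each clone, Pax8 is filled for clone 18, and no point is filled between the clones.

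*Ggt1* (ENSMUSG00000006345, chr10:75561604-75586200, plus strand) was the member with the largest difference. Its normalized counts were 176.4, 203.5, 154.9, 179.3 and 155.4 in control tumors 1 to 5. They were 76.2, 101.3, 69.6, 124.0 and 94.7 in clone 4 and 120.4, 48.0, 53.7, 116.3 and 132.1 in clone 18. Each knockout tumor lay below each control tumor, which was the case for 5.17% of the 16494 genes averaging at least 10 normalized counts. The mean fell from 173.9 ± 20.1 (SD, n = 5) to 93.6 ± 30.3 (SD, n = 10), or 53.8% of the control. The log2 difference was -0.96 (standard error 0.23, adjusted p = 0.0060 from limma, 0.00664 from edgeR and 0.000475 from DESeq2). Clone 4 was at 53.6% of the control mean (log2 difference -0.92, standard error 0.27, adjusted p = 0.0251 from limma) and clone 18 at 54.1% (log2 difference -0.99, standard error 0.27, adjusted p = 0.0116). Between the clones the log2 difference was -0.08 with a 95% interval from -0.64 to 0.48 (adjusted p = 0.916).

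The reads behind the fall of *Ggt1* numbered 147 to 231 for a control tumor and 39 to 118 for a knockout tumor. Tumors 12 and 13, the lowest, were also the libraries with the fewest reads on genes, 35080632 and 32924414. The knockout tumors with high muscle marker sums had *Ggt1* at 94.7 to 132.1, and the other knockout tumors at 48.0 to 101.3. Without those 5 tumors the log2 difference was -1.35 over both clones (adjusted p = 0.00108 from limma) and -1.75 in clone 18 (adjusted p = 0.000366). Clone 18 then held only tumors 12 and 13, the lowest in *Ggt1* at 48.0 and 53.7, so the larger fall is not read as a stronger result. Whether muscle tissue bears on the fall was not tested otherwise. Control tumors 2 and 4 had the highest *Ggt1* of the controls. Without both the log2 difference was -0.86, and with 3 control tumors left the adjusted p was 0.0602 from limma (0.125 for clone 4 and 0.0652 for clone 18). In clone 4 the call was also lost without tumor 2, 4, 6 or 8 (adjusted p from 0.0502 to 0.0677) and with quantile normalization (0.0576).

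*Ggt1* starts from several promoters along its 5' end. RefSeq, on GRCm38.p6, gives 4 start windows for it, all within the span of the annotated gene. The bases just before each start, up to 100 and ending earlier where an annotated exon lies closer, are shown because this is the member whose RNA fell. The whole windows, which are longer, were searched on both strands for GTTAAT (reverse complement ATTAAC), the half-site of HNF1 factors, for CAAAGTCCA, a site of HNF4 factors, and for GCGTGAC, the core of PAX2 and PAX8 sites. None of these motifs contains another. Of 32851 promoter windows of the same length, 7.1% held the HNF1 half-site, 0.47% the HNF4 site and 2.09% the PAX core. The table has no entry for *Cdh16* or *Ggt5*. None of the 4 *Ggt1* windows held a match, nor did those of *Pax8*, *Pax2*, *Lrp2*, *Aqp1*, *Cdh6*, *Enpep*, *Vil1* and *Ggt6*. The HNF1 half-site was found 2 times in 1 window of *Hnf4a* and 1 time in 1 window of *Alpl*, where capitals mark it in the last sequence. These matches describe letters only.
Ggt1, chr10:75564032-75564131, plus strand: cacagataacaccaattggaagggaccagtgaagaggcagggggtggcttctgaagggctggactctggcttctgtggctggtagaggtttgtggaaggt
Ggt1, chr10:75568562-75568633, plus strand: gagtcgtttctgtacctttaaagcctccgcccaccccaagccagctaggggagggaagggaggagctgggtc
Ggt1, chr10:75571460-75571525, plus strand: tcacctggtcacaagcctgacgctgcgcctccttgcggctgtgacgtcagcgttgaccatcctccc
Ggt1, chr10:75573395-75573447, plus strand: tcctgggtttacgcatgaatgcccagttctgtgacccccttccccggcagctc
Alpl, chr4:137766476-137766575, minus strand: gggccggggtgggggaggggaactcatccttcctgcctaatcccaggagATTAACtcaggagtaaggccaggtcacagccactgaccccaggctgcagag

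The brush border list, without *Ggt1*, gave 0 genes called higher and 5 lower of 13 measured (a mean of at least 10). Its median log2 difference was -0.15. Most of the 13 encode enzymes, but *Vil1* and *Slc9a3r1* do not. The list also holds the *Ggt1* relatives *Ggt5*, *Ggt6* and *Ggt7*, and *Ggt5* and *Ggt6* are among the 5 called lower. Whether these relatives belong to the brush border was not tested. By edgeR and DESeq2 the numbers called in the list were the same, and at an unadjusted p under 0.05 limma had 1 gene higher. For comparison, 10.1% of the 16494 genes with such a mean were called higher and 13.3% lower, and their median was -0.01. *Enpep*, aminopeptidase A, which cleaves angiotensin II, fell the most. It was at 1969.4, 1669.9, 1748.0, 1314.4 and 1339.6 in control tumors and between 102.1 and 298.0 in the 10 knockout tumors, with no overlap (log2 difference -3.26, standard error 0.22, adjusted p = 2.56e-08 from limma). *Vil1*, which encodes the microvillus actin bundler villin, was at 69.8 to 96.0 in control tumors and averaged 9.51 ± 4.81 (SD, n = 10) in knockout tumors, with no overlap (log2 difference -3.15, standard error 0.31, adjusted p = 1.78e-06). *Alpl*, tissue-nonspecific alkaline phosphatase, ranged from 16.9 to 234.3 in the control and from 3.8 to 25.5 in the knockout (log2 difference -2.94, standard error 0.54, adjusted p = 8.96e-04), so its groups overlapped.

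The gamma-glutamyltransferase relatives *Ggt5*, which lies next to *Ggt1* at chr10:75589340-75617200, and *Ggt6* fell by 0.60 and 0.62 on the log2 scale (limma, adjusted p = 0.00376 and 0.00984). *Ggt6* did not overlap between groups (100.4 to 147.1 in control and 57.6 to 99.6 in knockout tumors), and 8 of 10 knockout tumors had less *Ggt5* than every control tumor. The third relative, *Ggt7*, had a log2 difference of -0.06 (adjusted p = 0.627). Several other ectoenzymes of the same list did not pass the test. *Mme*, neprilysin, was the most abundant at 23202.7 to 34760.2, with a log2 difference of 0.20 (adjusted p = 0.115). In clone 4 alone *Mme* was called higher (0.28, adjusted p = 0.0485 from limma). *Anpep*, *Dpp4*, *Ace*, *Dpep1* and *Nt5e* had adjusted p values from 0.512 to 0.997 (limma). *Anpep*, *Ace* and *Nt5e* were highest in tumor 10 (788.7, 842.2 and 716.3), where the fibroblast marker sum was also highest, at 182748. *Ace* and *Nt5e* were lowest in tumor 6 (99.3 and 94.5), where that sum was lowest, at 17638.3. *Dpp4* was highest in tumor 12 and *Dpep1* in tumor 2. The part of other cells in these levels was not tested. *Gm42628* overlaps *Enpep* and *Usp37* overlaps *Vil1* on the other strand.

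**Figure D3:**
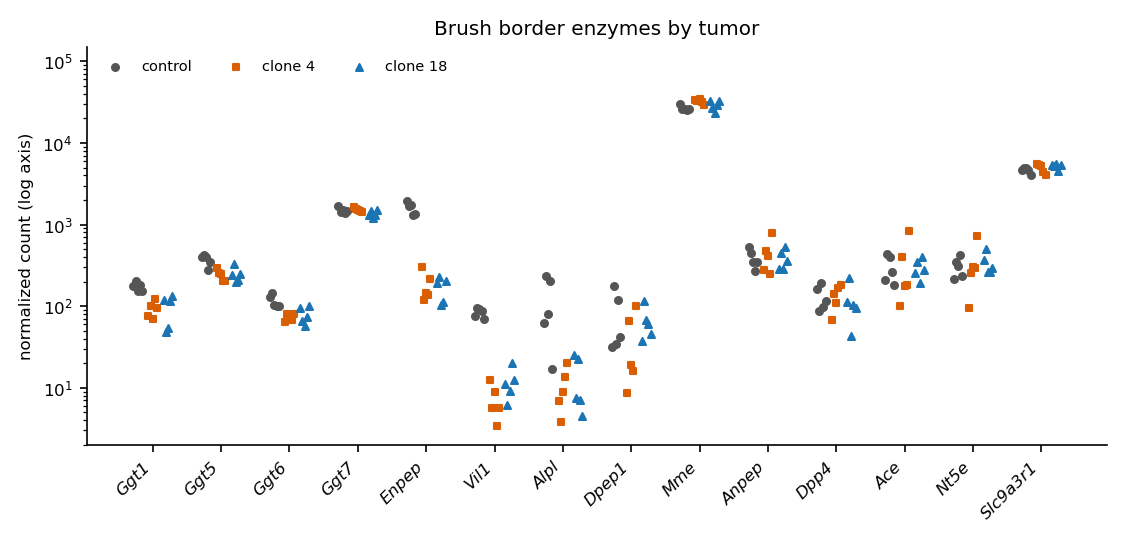
Normalized count (vertical log axis) of Ggt1 and the 13 measured genes of the brush border list, 1 point per tumor, by group. Enpep and Vil1 separate the control from both clones by about an order of magnitude, Ggt1 and Ggt6 separate them by less, and the genes from Mme to Slc9a3r1 overlap.

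Other genes of the nephron were taken from 14 lists written from general knowledge, which hold 281 genes besides the 8. Of these 198 had a row and 163 a mean of at least 10. In the knockout 21 were called higher (12.9%) and 30 lower (18.4%), beside 10.1% and 13.3% of all genes with that mean, and the median log2 difference was -0.057. In the 4 proximal tubule lists 5 of 60 measured genes were called higher (8.33%) and 15 lower (25%), with a median of -0.124. No test was made of whether a list differs from other genes.

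Among 19 measured transcription factors of the nephron, *Hoxa11* (log2 difference 0.40, adjusted p = 0.00213 from limma) and *Glis3* (0.23, 0.0433) rose, and *Tfcp2l1*, a factor of the distal nephron and collecting duct (-0.40, 0.0150), and *Maf* (-0.21, 0.0377) fell. *Hoxa11* was called in each clone, *Glis3* in neither (adjusted p = 0.133 in clone 4 and 0.0536 in clone 18), *Tfcp2l1* in clone 18 but not in clone 4 (0.101), and *Maf* in clone 4 but not in clone 18 (0.184), nor by edgeR over both (0.0559). *Lhx1* and *Wt1*, factors of early nephron and podocytes, had means of only 20.8 and 30.1. *Pax5* was the only other Pax gene with a row, and it did not pass the test.

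Of the partners of megalin 1 of 11 was called higher and 2 lower, with a median log2 difference of -0.054. *Lrpap1*, the chaperone that escorts megalin through the secretory path, was at 3866.6 to 4203.1 in control and 2467.8 to 3143.9 in knockout tumors and fell by 0.52 on the log2 scale (standard error 0.05, adjusted p = 3.61e-06 from limma). *Fcgrt*, the neonatal Fc receptor that recycles albumin, fell by 0.42 (adjusted p = 0.00232). *Rap1gap*, which switches off the small GTPase RAP1, rose, with 87.8 to 104.4 in control tumors and 217.2 to 373.9 in knockout tumors (log2 difference 1.75, standard error 0.12, adjusted p = 4.33e-08), and *Rap1gapos* overlaps it on the other strand. *Lrp11*, a relative of megalin, rose by 0.21 on the log2 scale (adjusted p = 0.0308), with an adjusted p of 0.134 in clone 18.

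Solute carriers of the proximal tubule split evenly, with 3 called higher and 3 lower of 17 measured. *Slc6a18*, a neutral amino acid transporter, rose from 49.1 ± 21.96 (SD, n = 5) to 151.1 ± 46.4 (SD, n = 10; log2 difference 1.66, adjusted p = 2.70e-04 from limma), and *Slc16a4*, of the monocarboxylate transporter family, from 410.8 ± 54.8 to 711.3 ± 64.8 (0.79, 8.69e-06). *Slc7a7* rose less (0.28, 0.0207), and in clone 4 it did not pass (0.148). *Slc17a1*, an anion transporter of the apical membrane, fell by 0.52 (adjusted p = 0.00339) and *Slc22a18* by 0.51 (0.0284, and 0.081 in clone 18). *Slc6a13*, a GABA transporter, was at 3.2 to 114.5 in control and 0.0 to 10.1 in knockout tumors, with overlap (log2 difference -3.28, adjusted p = 0.00369), and the call was lost without control tumors 2 and 4 (log2 difference -2.003, adjusted p = 0.082). Metabolic enzymes of the segment had 1 gene called higher (*Nat8f1*) and 5 lower (*Gatm*, *Cyp4b1*, *Sord*, *Qdpr* and *Crym*) of 19 measured, and *Gatm*, which makes the precursor of creatine, fell by 0.69 (adjusted p = 0.00537). In clone 4 the adjusted p was 0.222 for *Nat8f1*, 0.0507 for *Gatm* and 0.125 for *Crym*, and in clone 18 it was 0.146 for *Sord*, which differed between the clones (0.32, adjusted p = 0.047).

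**Figure D4:**
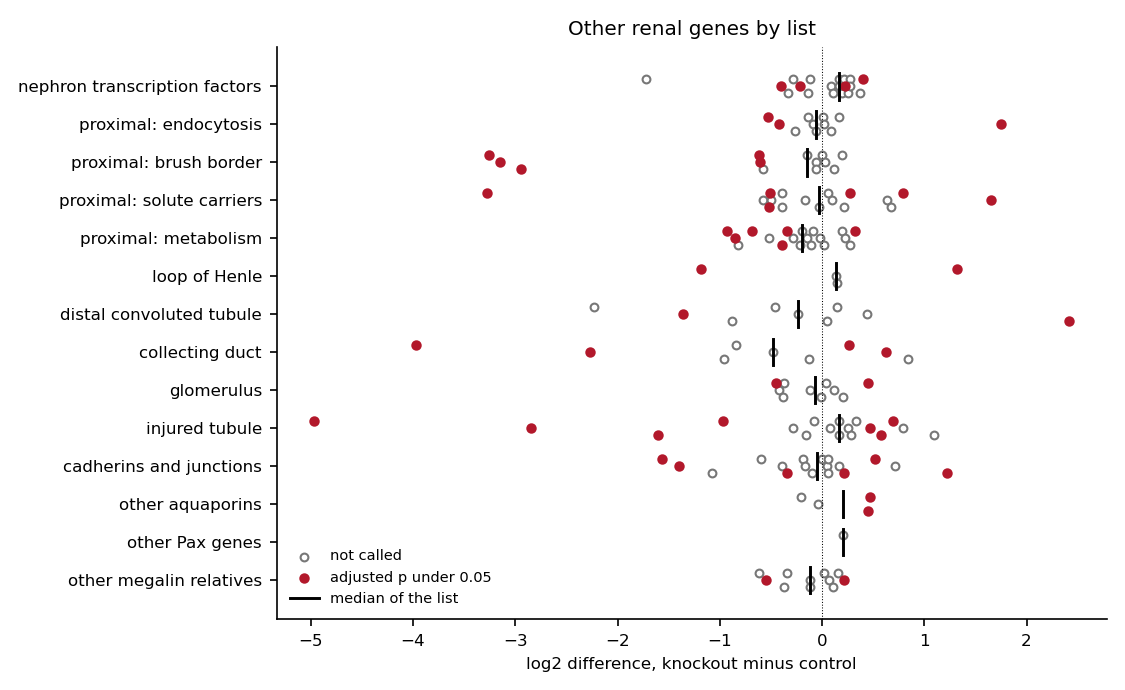
Log2 difference between knockout and control tumors (horizontal axis) of each measured gene in the 14 renal lists. Filled points had an adjusted p under 0.05 and the bar is the median of a list. Filled points lie on both sides of 0 in most lists, and the brush border list has them on the lower side alone.

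Distal segments also held genes moving either way. *Kcnj16*, a potassium channel subunit of the distal convoluted tubule, was at 37.0 to 88.5 in the control, at 595.1 to 1106.1 in clone 4 and at 87.4 to 180.6 in clone 18. It rose in both (log2 differences 3.79 and 1.04, adjusted p = 2.7e-08 and 0.005 from limma) and differed between the clones by -2.75 (adjusted p = 2.87e-06). *S100g*, the calcium-binding protein calbindin-D9k, fell in both clones, to 2587.8 ± 473.4 in clone 4 and 1442.7 ± 142.9 in clone 18 (SD, n = 5 each) from 4966.2 ± 687.6 in the control (SD, n = 5). Its further difference between clones was -0.83 (adjusted p = 4.01e-04 from limma). In the collecting duct list, *Aqp2*, the vasopressin-regulated water channel, rose by 0.62 (adjusted p = 0.00514), and *Scnn1a*, the alpha subunit of the epithelial sodium channel, fell by 2.27 (8.52e-05). *Kcne1*, a potassium channel subunit, was at 8.5 to 144.4 in the control and 0.0 to 6.7 in the knockout (-3.97, 3.59e-04, moving to -2.62 with a pseudocount of 5). In the loop of Henle list *Ppp1r1a*, an inhibitor of protein phosphatase 1, rose by 1.32 (0.00773) and *Ptger3*, a prostaglandin E2 receptor, fell, with 13571.1 to 17489.0 in the control and 3981.9 to 9635.5 in the knockout. Among other aquaporins, *Aqp5* rose by 0.47 and *Aqp9* by 0.45 on the log2 scale (adjusted p = 0.00411 and 6.21e-04).

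Genes of injured tubules gave 3 called higher and 4 lower of 18 measured. *Spp1*, osteopontin, was the most abundant and rose from 65068 ± 6016 (SD, n = 5) to 105788 ± 12008 (SD, n = 10; log2 difference 0.70, adjusted p = 4.36e-05 from limma), with no overlap. *Clu*, clusterin, rose by 0.47 (0.0206) and *Car12*, a membrane carbonic anhydrase, by 0.58 (0.00990). The *Clu* call was absent in clone 4 (0.167) and lost without tumor 1 or 3 (0.0684 and 0.0645), and the *Car12* call without the 5 muscle-rich tumors (0.101). *Lcn2*, lipocalin-2, fell by 1.60 (8.0e-04), with 954.2 to 2328.5 in the control and 353.9 to 1608.6 in the knockout, with an overlap due to tumor 10. *Vcam1*, an adhesion molecule, fell by 0.42 in clone 4 and by 1.51 in clone 18 (adjusted p = 0.0356 and 3.74e-07), and the clones differed by -1.10 (6.15e-05). The summed level of neutrophil markers, cells that also make lipocalin-2, was 2037.4 in tumor 10 and 531.2 to 765.3 in the other clone 4 tumors, and control tumors 2 and 4, the highest in *Lcn2* among the controls, had 1281.6 and 1832.2 beside 793.8 to 949.6 in the other controls. The part of neutrophils in *Lcn2* was not tested. The keratins *Krt20* and *Krt7*, which form epithelial intermediate filaments, also fell. *Krt20* was at 130.1 to 367.3 in the control and 0.0 to 21.2 in the knockout, and *Krt7* at 34.3 to 106.4 and 1.0 to 20.2 (log2 differences -4.97 and -2.85, adjusted p = 2.28e-05 and 0.00147). In the list of cadherins and junction genes, which holds the relatives of *Cdh16*, *Cldn3* and *Epcam* rose (log2 differences 0.52 and 1.23), and *Tjp3*, *Marveld2* and *F11r* fell (-1.56, -1.40 and -0.34).

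The 12 largest falls and 12 largest rises among called genes of these lists gave 8 falls and 6 rises with no overlap between knockout and control. Over all genes with a mean of at least 10 the shares with no overlap were 5.17% below and 3.42% above, but these 24 genes were picked for size, so nothing is read from the difference. Of the 12 falls 12 were called in each clone, and of the 12 rises 11 in clone 4 and 12 in clone 18. Over all genes tested, 16.8% were called in clone 4 and 24.7% in clone 18. The 24 genes had already been called over both clones together, in the same tumors, so nothing is read from these numbers. Of the 24 picked genes, 3 differed between the clones, *Tjp3*, *S100g* and *Kcnj16*, beside 4.62% of all genes tested. In 7 of the 12 falls (*Krt20*, *Kcne1*, *Slc6a13*, *Alpl*, *Krt7*, *Scnn1a* and *Lcn2*) control tumors 2 and 4 held the highest control values. This was so for *Ggt1* among the 6 members and for 14.1% of all genes with a mean of at least 10. Tumors 2 and 4 were singled out after the values were seen, and the falls were picked for size. Nothing is therefore read from the difference in share. Without both tumors 43 genes of the lists were called in place of 51, 26 of them lower in place of 30.

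Because *Aqp1* is also a gene of vessels and red cells, it was set against their markers. The 14 endothelial markers were all measured and 0 of 14 were called by limma (1 at an unadjusted p under 0.05, and 1 by edgeR and by DESeq2, in each case higher in the knockout), with sums of 9439 to 18670 in the control and 11410 to 19720 in the knockout. *Aqp1* and this sum had r = 0.555 over the 15 tumors (permutation p = 0.031, 0.0621 adjusted over 2 relations) and rho = 0.543 (p = 0.0394, adjusted 0.0789, permutation test). With each group's mean removed r was 0.702, and without the 2 tumors farthest from the median sum (tumors 2 and 10) it was 0.559. The 7 red cell markers with a row had r = -0.062 to *Aqp1* (permutation p = 0.827, adjusted 0.827), rho = -0.025 (p = 0.933, adjusted 0.933) and r = -0.22 without tumors 2 and 14. Of the 6 red cell markers measured, *Slc4a1* was called higher in the knockout. How much of the *Aqp1* RNA came from vessels was not tested.

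**Figure D5:**
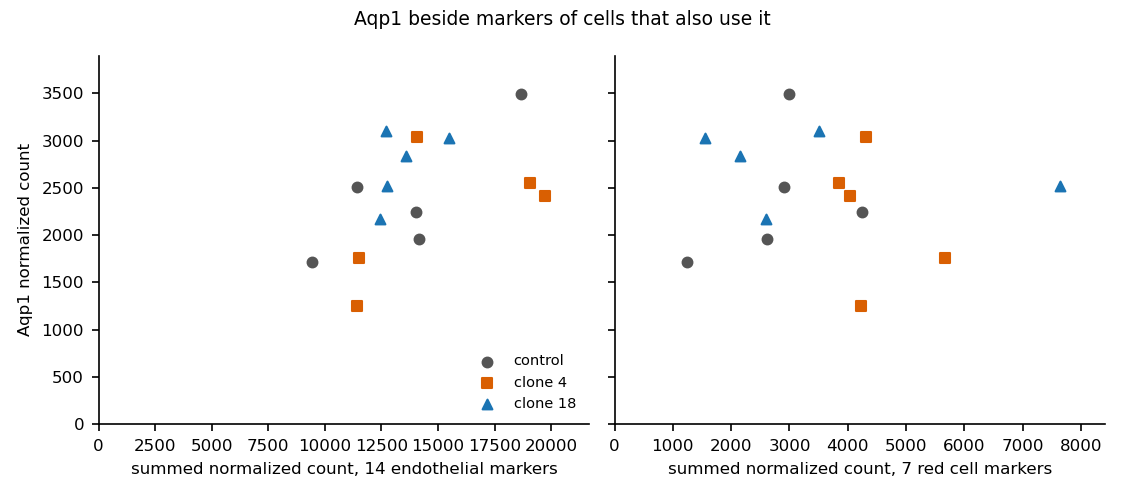
Aqp1 normalized count (vertical axis) against the summed normalized count of 14 endothelial markers (left) and of 7 red cell markers (right), 1 point per tumor. Points rise together on the left (r = 0.555) and show no slope on the right (r = -0.062).

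Markers of some other cells moved with the knockout and so beside each difference above. Of 8 macrophage markers 4 were called lower by limma and by edgeR and 5 by DESeq2, with sums of 71220 to 91980 in the control and 51810 to 69390 in the knockout. Of 10 T cell markers 4 were called lower by limma (9 at an unadjusted p under 0.05) and 7 by edgeR and by DESeq2, with a median log2 difference of -1.40 and sums of 239.4 to 1549 in the control and 164.2 to 430.8 in the knockout. *Krt18* and *Pkp3* were called lower by limma among the 4 epithelial markers measured, with a median log2 difference of -0.468. By edgeR 2 of the 4 were called lower and by DESeq2 3. The epithelial sum was 80340 to 101400 in the control and 66170 to 95540 in the knockout. Of 6 neutrophil and 4 B cell markers measured, 1 each was called lower. Fibroblast and pericyte lists had 0 markers called by limma, edgeR or DESeq2 and 0 at an unadjusted p under 0.05. Of 10 skeletal muscle markers 0 were called by limma (3 at an unadjusted p under 0.05) and 5 were called higher by edgeR and by DESeq2. Hepatocyte markers, listed because the liver also uses *Hnf4a*, summed to at most 11.9, and skin keratinocyte markers to at most 18.0. The part of any of these in the differences was not tested.

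The genes whose levels followed each member most closely over the 15 tumors, on the log2 scale and among 16493 genes, were given by Pearson's r as a description, since the tumors share the same 3 groups. They were *Dnajb12*, *Wfs1* and *Mgrn1* for *Pax8* (r = 0.924, 0.919 and 0.904), *Iqsec2*, *C430019N01Rik* and *Cic* for *Pax2* (0.920, 0.899 and 0.894), and *Klc4*, *Plin3* and *Gcdh* for *Cdh16* (0.907, 0.902 and 0.870). *Trpm4*, *4732463B04Rik* and *Ercc6* came first for *Lrp2* (0.837, 0.796 and 0.790), and *4930502E18Rik*, *Gpihbp1* and *Apol7a* for *Aqp1* (0.826, 0.815 and 0.813). *Gpihbp1* encodes a capillary endothelial protein. *Cirbp*, *Elac1* and *Klhl24* were closest to *Ggt1* (0.946, 0.942 and 0.935), and with group means removed their r was 0.882, 0.908 and 0.858. No member was among the 3 closest genes of another. With group means removed, the 15 pairs of members had r from -0.488 for *Pax2* and *Cdh16* to 0.563 for *Lrp2* and *Ggt1*.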

How the data were processed

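RNA from 15 tumors was measured by bulk RNA sequencing. The deposited values are a signal, namely normalized counts: per the labels the authors used TopHat2, HTSeq and DESeq with mm10, and rounded the values to 0.1. Versions, annotation and strand setting are not given in the sources used here. Each tumor's values rise in 1 constant step (checked up to 8000, 100% within 0.06), and dividing by it gave whole reads. Read numbers set counting error only. None of the 30 pairs of tumors within groups was alike within counting noise (chi-square over degrees of freedom of 17.7 to 164.2).

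From there, 18250 of 18279 genes (29 were at 0 in every tumor) were compared on log2(normalized count + 1) with limma 3.58.1 with trend, 10 knockout against 5 control tumors and, in a second fit, 3 groups. A log2 difference on this scale understates changes of low genes. Adjusted p values follow Benjamini and Hochberg, over all genes tested, with a threshold of 0.05. P values measure only the spread between these tumors. Alternatives were edgeR 4.0.16 and DESeq2 1.42.0 on recovered reads, pseudocounts of 0.1 and 5, a mean of at least 10, upper-quartile and quantile scaling, limma without trend and each tumor left out. 2 more were chosen after seeing the data: leaving out 5 knockout tumors with high muscle markers, and leaving out control tumors 2 and 4. The members and lists were chosen with earlier results of these data known. The named genes were the members, the called list genes with the 12 strongest rises and the 12 strongest falls, and the 3 genes closest to each member. Other called list genes and genes of the brush border list were named after their values were seen. Permutation tests were two-sided with 100000 resamples. Gene positions and exon lengths are from GENCODE M21 on GRCm38. Some list genes are not reported here. The fits were tested on simulated data with 200 changed genes, the same spread setting for every gene and no difference between clones. False calls made up 5.0% of the calls of limma, 5.91% of those of edgeR and 10.1% of those of DESeq2. Software was scipy 1.17.1 with numpy 2.4.6, matplotlib 3.10.9 and pandas 2.3.3 under Python 3.11.15, and R 4.3.3.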

Additional observations from a re-analysis of the deposited data

Results flagged for a closer look

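Among the members and the 24 named list genes, 4 values stood far from the other tumors of their group, by Dixon's test at the 95% level in groups of 5. *Krt20* was at 21.2 in clone 4 tumor 10, next to 6.8 and with a lowest value of 1.0. *Lcn2* was at 1608.6 in the same tumor, next to 569.5, and the neutrophil marker sum was the highest of all 15 tumors there, at 2037.4. *Lcn2* was at 379.9 in clone 18 tumor 14, below 457.9 to 471.5 in the other tumors of the clone. *Slc6a13* was at 10.1 in clone 18 tumor 15, next to 2.6. With 90 groups tested, 4.5 such values are expected by chance. No member had such a tumor.

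By the limma test of clone 18 against clone 4, 6 of the 51 called list genes had different changes in the clones, 3 of them among the 24. Over all genes tested 4.62% differed between the clones. The list genes were picked as called against the control, so nothing is read from their number. The log2 difference between the clones was -1.22 for *Tjp3* (adjusted p = 0.00319), which fell in both clones and further in clone 18. It was -0.83 for *S100g* (adjusted p = 4.01e-04), which did the same. It was -2.75 for *Kcnj16* (adjusted p = 2.87e-06), which rose in both clones and further in clone 4. Outside the 24, it was -1.10 for *Vcam1* (adjusted p = 6.15e-05), which fell further in clone 18. It was 0.32 for *Sord* (adjusted p = 0.047) and -0.53 for *Cldn1* (adjusted p = 0.00659), which were called against the control in clone 4 alone, *Sord* lower and *Cldn1* higher. No member differed between the clones at the threshold.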

How the results depend on the processing

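Over 48 single-gene results and 25 alternatives each, 1162 of 1200 values kept their direction and side of the threshold, 18 lost the call, 2 gained one and 18 changed sign. Of these results 24 were the list genes picked for the strongest changes, and 21 of the 24 kept every value. The total therefore says little about the members. None of the sign changes was past the threshold. The *Ggt1* difference between knockout and control tumors was past it in 25 of 26 fits. The number of members called in that comparison was 1, from 1 to 2 with single tumors left out, and 0 without control tumors 2 and 4. For clone 4 it was 1, from 0 to 1 with single tumors left out, and 0 with quantile normalization and without tumors 2 and 4. For clone 18 it was 2, from 1 to 2 with single tumors left out, 1 with quantile or upper-quartile scaling and 0 without tumors 2 and 4. Apart from the loss of samples, the causes were not tested. *Aqp1* changed sign between knockout and control without the muscle-rich tumors (-0.22), without control tumors 2 and 4 (-0.0596) and with single tumors left out (-0.0625 to 0.1942), and in clone 4 with single tumors left out (-0.2688 to 0.0512). *Cdh16* was at 0.0003 in clone 18 with quantile normalization and at -0.11 between clones without the muscle-rich tumors. *Lrp2* in clone 18 was at -0.35 without them and from -0.14 to 0.19 with single tumors left out. *Ggt1* between clones was at 0.0318 with edgeR and 0.0304 with DESeq2 and from -0.23 to 0.13 with single tumors left out. The genes of the renal lists called ranged from 43 to 57 and those called lower from 26 to 35. No paired analysis was possible because the groups share no tumor numbers. Depth limits the lowest genes, since *Kcne1* and *Slc6a13* had at most 9 reads in any knockout tumor.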
